A study of Homo sapiens with 47 samples.

Results

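Circulating tumor cells (CTCs) of the LM2 model of triple-negative breast cancer (TNBC) were examined for the expression of the genes of the proteasome. The members were taken by symbol, as protein-coding genes named PSMA, PSMB, PSMC, PSMD, PSME, PSMF or PSMG followed by a number. Of the 48 such genes in GENCODE release 44, 46 had a row among the 25739 genes with values, and the testis subunit PSMA8 and the thymus subunit PSMB11 were not analysed here. The CTCs came from the blood of 5 NSG (NOD/SCID gamma) mice, an immunodeficient strain, with mammary fat pad tumors grown from a GFP-tagged LM2 line, a derivative of MDA-MB-231, injected when the animals were 6 to 8 weeks old. They were enriched by size on a Parsortix cassette, picked singly as GFP-positive cells after staining with CD45 as a negative marker, and compared with 6 single cells of the same line grown in culture without any treatment named in the labels. There were 2 CTCs with values from mouse 5541, 4 from mouse 5542, 10 from mouse 5545, 17 from mouse 5546 and 4 from mouse 5549. The mouse was taken as the replicate, and nothing in the labels says that the cultured cells came from separate cultures, so they were taken as 1 culture. Both groups are human cells of 1 established line, which lives in these animals without a working adaptive immune system. Values of the 5 mice are given below in the order 5541, 5542, 5545, 5546 and 5549.

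The proteasome degrades proteins that carry ubiquitin chains. Its barrel, the 20S core, is built from alpha rings (PSMA genes), which gate the entrance, and beta rings (PSMB genes), of which PSMB5, PSMB6 and PSMB7 hold the active sites. The 19S particle caps the barrel, where its ATPases (PSMC genes) unfold substrates and its other subunits (PSMD genes) bind and remove ubiquitin, and core and cap together form the 26S proteasome. Interferon is known to induce PSMB8, PSMB9 and PSMB10, which replace the 3 constitutive active subunits in the immunoproteasome and change the peptides offered to class I antigen presentation.

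Each cell was 1 SMARTseq2 library, a full-length cDNA method without molecular identifiers, and depth was 469614 to 2041333 reads on genes per CTC and 776949 to 1186197 per cultured cell. The labels give 1 batch for all libraries. Values are normalized read counts, in which the reads of a gene were scaled by a size factor for each cell. On this scale the totals of cultured cells were higher than those of most CTCs, with medians of 1318800 against 835760. The median log2 ratio of CTCs against culture was -1.56 over the 9164 genes whose larger mean reached 8, and -0.81 on reads per 1000000 reads on genes (RPM), so changes are read relative to these medians. CTCs had 2313 to 12299 genes detected, cultured cells 7369 to 13679, and the mitochondrial share of reads was 4.28 to 23.9% in CTCs and 4.05 to 5.74% in cultured cells. The 8 LM2 markers were detected in both groups, with a summed value of 5047 to 29662 in CTCs and 8313 to 11608 in culture. Erythroid markers summed to 0 to 15571 per CTC and to 0 in culture, with HBB, HBA2, HBD and ALAS2 higher by the rule of size given next, as 4 of 6 genes. Leukocyte markers summed to 32.1 to 2533 per CTC and 75.3 to 1120 in culture, with 0 of 9 meeting the rule, and PTPRC (CD45), CD53, TYROBP and FCER1G at 0 in culture. Platelet markers reached at most 77.3 per CTC and 3.23 in culture with 0 of 4 past the minimum. Of 3 epithelial markers EPCAM alone met the rule, as lower in CTCs, and CDH1 was at 0 in every cultured cell and detected in 1 CTC. CLDN4 did not meet the rule, with 9.07 ± 14.1 (SD, n = 5 mice) against 2.21 in culture, and was detected in 8 CTCs and 2 cultured cells. The part of these other-cell markers in the results below was not tested.

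The comparison asked how expression of the proteasome in CTCs compared with cultured cells of the same line. Of the 46 genes, 45 had a mean log2 ratio below 0 and the activator PSME4 had one above 0, with a median of -1.27, which is 0.29 above the median of all genes past the minimum. Without a minimum, which adds genes with few or no reads, the median of all 25739 genes was -0.24 and the members lay below it, with 11.3% of all genes lower by the rule given next. On RPM the median was -0.52, 34 genes were below 0, 12 were above 0, and the distance to all genes was again 0.29. The culture is 1 sample, so a rule of size was used in place of a test, under which the mean of every mouse had to differ from the culture at least 2-fold in the same direction after 1 was added to both, with a larger mean of at least 8. Under this rule PSMA3, PSMC1, PSMD1, PSMD3, PSME3 and PSMG1 were lower in CTCs, which is 6 of 46 proteasome genes (13%) against 25.1% of all genes, and 0 of 46 were higher against 0.262%. With RPM, PSMG1 alone was lower (2.17% of the members against 8.72% of all genes) and 0 were higher against 0.695%. On the size-factor scale all 5 mice were below the culture for 33 of 46 proteasome genes (71.7%) and for 60.3% of all genes.

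The adjusted test called no gene among those past the filter on low counts. When reads were summed per mouse and over the culture, edgeR's quasi-likelihood test with Benjamini-Hochberg adjustment called 0 of 13813 genes (0%), and 0 of 46 members. At an unadjusted p under 0.05 it gave 241 genes (1.74%) and again 0 members, the smallest being that of the alpha subunit PSMA7 with p = 0.0758 (edgeR, adjusted p = 1.00). Without a filter on low counts it called 27 of 25739 genes and 0 members. This fit takes the lone culture to vary as the mice do. Its TMM scaling placed the median log2 fold change of the members at 0.19 and that of all genes at 0.31, so the sign of a proteasome gene's change depended on the scaling for many members.

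**Figure D1:**
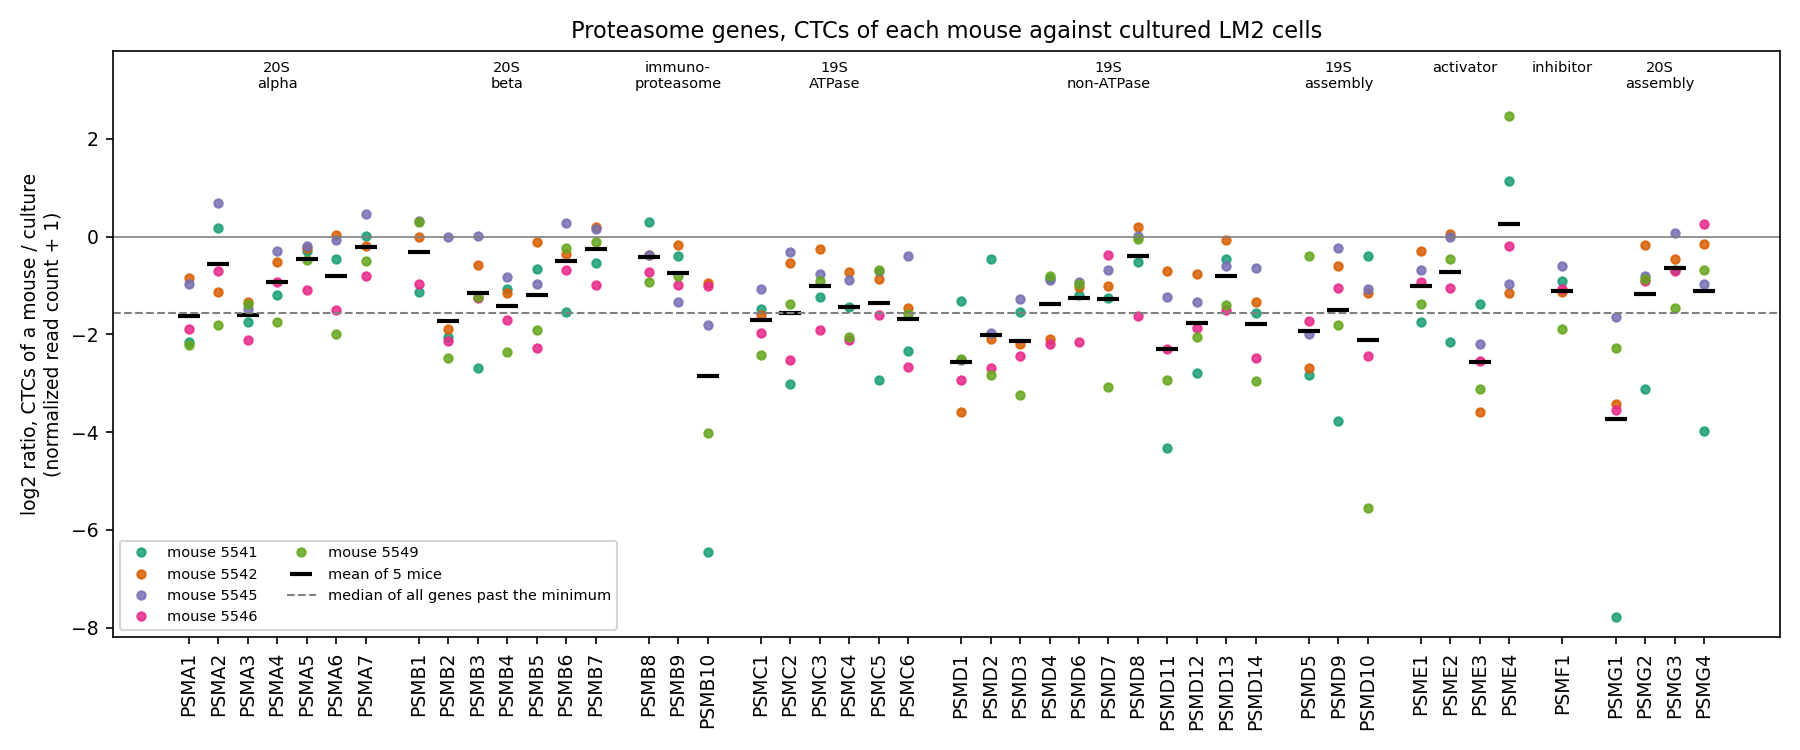
The log2 ratio of the mean of each mouse's CTCs to the mean of the cultured cells (y axis, normalized read count after adding 1) is plotted for the 46 proteasome genes grouped by role (x axis). Points are mice, black bars are means of 5 mice, and the dashed line is the median of all genes past the minimum, -1.56. Most 20S genes lie above the dashed line, PSME4 alone has a mean above 0, and PSMG1 has the lowest mean, -3.74, which is -2.73 without mouse 5541.

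The median of the 20S core lay above that of all genes past the minimum on the size-factor scale and on RPM. It also lay above that of the genes past the filter in the edgeR fit. Its 14 constitutive genes had a median log2 ratio of -0.87, which is 0.69 above the median of all genes on the size-factor scale and 0.70 above it on RPM. In the edgeR fit with TMM, on reads summed per mouse, its median log2 fold change was 0.60 against 0.31 for the genes tested. There the core was farther from the culture than the median gene. Each gene was detected in 33 to 37 of 37 CTCs, and 1 of 14 met the rule. On the size-factor scale all 5 mice were below the culture for 7 of 14, against 60.3% of all genes. The transcripts of the core had a median of 1003.5 bases. Protein-coding genes with a culture mean of at least 50 had a median log2 ratio of -0.999 at 750 to 1000 bases and of -1.35 at 1000 to 1500. The part of transcript length in the distance of the core to all genes was not tested.

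Among the alpha subunits, PSMA7 was the highest per kilobase of transcript in both groups. Its mean normalized read counts in the 5 mice were 1821, 1572, 2485, 1024 and 1270, against 1802 in culture, and its log2 ratio was -0.21 ± 0.49 (SD, n = 5 mice). The mice thus lay on both sides of the culture, and on RPM 4 of 5 mice were above it. PSMA3 was the alpha subunit that met the rule, with means of 274, 367, 331, 214 and 355 against 928, and a log2 ratio of -1.61 ± 0.32. Of its 37 CTCs, 32 were below every cultured cell and 0 were above. The share of all genes with such a count is not given, so counts of CTCs below every cultured cell, here and later, have no background. PSMA2 was the lowest per kilobase, at 9.63, 3.30, 14.2, 4.79 and 1.72 against 8.47. All bases of its canonical transcript are shared with a second annotated gene on the same strand, so its reads may have been split or left uncounted, and its level is uncertain. PSMA6 and PSMA1 share 81.4% and 67.0% of their bases with another gene in the same way.

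Among the beta subunits, PSMB1 was the highest per kilobase, with means of 406, 884, 1111, 455 and 1097 against 896 in culture, and its log2 ratio was -0.31 ± 0.70. Mice 5545 and 5549 were above the culture and the other mice below it. PSMB2 was the lowest per kilobase, with means of 88.0, 98.4, 365, 82.6 and 64.9 against 369. Its mean in mouse 5545 was close to that of the culture, whereas the other 4 mice were lower. That mean was raised by CTCs 5545-10 with 900 and 5545-11 with 879, while the other CTCs of the mouse had 83.2 to 411. Ratios of the 3 active-site genes overlapped between mice. PSMB5, which carries the chymotrypsin-like activity, had means of 573, 846, 465, 187 and 240.4 against 914, with 26 of 37 CTCs below every cultured cell. PSMB6, the caspase-like subunit, had means of 260, 594, 917, 471 and 649 against 759, and PSMB7, the trypsin-like subunit, had 454, 756, 736, 332 and 609 against 661. The log2 ratios were -1.19 ± 0.90 for PSMB5, -0.51 ± 0.67 for PSMB6 and -0.26 ± 0.50 for PSMB7, and none of the 3 met the rule. PSMB5 had no read in 3 CTCs, of which 5546-s7 and 5546-s9 belong to mouse 5546 and 5549-6 to mouse 5549.

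Start regions of the 3 inducible genes and of PSMB5 are shown so that the letters of interferon response sites, the known route of induction, can be compared between them. Windows of 250 bases before to 50 bases after each start were taken from RefSeq on GRCh38.p14, and 40 of the 46 genes matched with 49 windows. They were searched on both strands for the letters GAAANNGAA, a core of sites for interferon regulatory factors, for TGACNNNGC, a core of the antioxidant response element, and for CCAAT. Capitals mark the matches in the windows below.
PSMB8, chr6:32843998-32844297, minus strand: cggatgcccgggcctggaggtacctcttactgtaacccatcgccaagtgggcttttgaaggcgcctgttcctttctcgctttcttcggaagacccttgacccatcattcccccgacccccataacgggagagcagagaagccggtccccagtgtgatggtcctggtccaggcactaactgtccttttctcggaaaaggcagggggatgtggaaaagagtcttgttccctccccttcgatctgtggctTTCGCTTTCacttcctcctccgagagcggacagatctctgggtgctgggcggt
PSMB9, chr6:32853942-32854241, plus strand: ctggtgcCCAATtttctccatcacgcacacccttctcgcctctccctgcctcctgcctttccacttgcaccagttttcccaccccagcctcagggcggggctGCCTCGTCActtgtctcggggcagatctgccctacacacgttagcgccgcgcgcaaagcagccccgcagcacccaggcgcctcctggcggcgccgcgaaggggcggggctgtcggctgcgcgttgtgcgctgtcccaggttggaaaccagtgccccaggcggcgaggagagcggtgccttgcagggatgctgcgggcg
PSMB10, chr16:67936801-67937100, minus strand: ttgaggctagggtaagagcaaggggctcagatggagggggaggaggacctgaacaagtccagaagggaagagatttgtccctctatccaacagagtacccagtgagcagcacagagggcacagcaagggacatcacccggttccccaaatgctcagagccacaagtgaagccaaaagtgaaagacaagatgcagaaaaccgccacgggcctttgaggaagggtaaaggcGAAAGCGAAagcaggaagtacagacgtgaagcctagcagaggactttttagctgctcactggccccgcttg
PSMB5, chr14:23035171-23035470, minus strand: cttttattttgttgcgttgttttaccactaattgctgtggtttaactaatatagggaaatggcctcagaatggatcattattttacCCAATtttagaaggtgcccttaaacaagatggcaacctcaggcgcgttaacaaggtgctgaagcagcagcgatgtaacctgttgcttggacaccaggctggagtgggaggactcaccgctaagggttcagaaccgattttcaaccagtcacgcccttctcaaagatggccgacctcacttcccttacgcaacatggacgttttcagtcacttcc
The interferon core lies in the windows shown for PSMB8 and PSMB10 and in 8 of 49 member windows (16.3%), against 8.11% of 35116 windows of all genes. The other 6 genes are PSMA4, PSMB4, PSMC2, PSME1, PSME2 and PSMG4. PSMB8 and PSMB5 each have a second window, not shown, which holds none of the 3 letter patterns, and the windows of PSMB9 and PSMB5 hold no interferon core. The antioxidant core was found in 15 of 49 windows (30.6%), against 13.3% of all windows. Of the genes that met the rule, PSMD1, PSMD3 and PSMG1 have it and PSMA3, PSMC1 and PSME3 do not. The others with it are PSMB9, PSMA4, PSMB3, PSMC4, PSMC5, PSMD5, PSMD9, PSMD12, PSME1, PSME2, PSME4 and PSMG2, which did not meet the rule. CCAAT was found in 19 of 49 windows (38.8%) against 34.6%. A match describes letters and shows no bound factor.

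The immunoproteasome genes were detected in the cultured cells and in most CTCs. PSMB8 had means of 181, 113, 113, 88.6 and 76.2 in the 5 mice, against 147 in culture, with a log2 ratio of -0.42 ± 0.47. It was detected in 30 of 37 CTCs with values up to 356, and cultured cells ranged from 42.7 to 303. On RPM 1 of 5 mice was below the culture, so its direction depended on the scaling. PSMB9 had means of 45.9, 54.2, 23.6, 30.1 and 34.3 against 60.9, and was detected in 24 of 37 CTCs, the fewest of any member. PSMB10 was at 0 in both CTCs of mouse 5541 and had means of 44.5, 24.2, 42.3 and 4.39 in the other mice, against 87.0 in culture, where 1 of 6 cells was at 0. Its mean log2 ratio of -2.85 ± 2.37 was -1.95 without mouse 5541, and 56.1% of its transcript is shared with another annotated gene. All 37 CTCs lay within the range of the cultured cells for PSMB10.

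All 3 inducible genes were detected in 19 of 37 CTCs and in 5 of 6 cultured cells. None of the 3 was detected in CTCs 5545-11, 5546-s9 and 5549-6, which held 39, 24 and 29 of the 46 genes. CTC 5546-s9 had the highest PTPRC value of any CTC, 205, and CTC 5549-6 the highest HBB value, 12138. A missing read at this depth does not show that a gene was silent, and an inducible gene was never detected in a cell without its constitutive partner.

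Levels per kilobase were then compared within each active-site pair, which removes the scaling of the cell. The 3 inducible genes made up 10.6% ± 3.85 (SD, n = 5 mice) of the 6 genes in CTCs, with mouse means of 7.11 to 16.8%, and 9.82% in culture with cells from 3.6 to 16%. The highest mouse mean, that of mouse 5541, averages 1.10% in CTC 5541-1 and 32.5% in CTC 5541-5. The CTCs overlapped the cultured cells, with 10 below, 18 within and 9 above their range. For PSMB8 within PSMB5 plus PSMB8, the mouse means were 31.5, 12.7, 17, 30.6 and 20.2%, against 12.3% in culture with cells from 6.11 to 18.6%. Mouse 5542 was close to the culture and the other 4 means were higher, but that of mouse 5541 rests on CTC 5541-5 with 60.8%, since CTC 5541-1 had 2.22%, below every cultured cell. Of the 34 CTCs with a read on either gene, 17 were above every cultured cell while 8 were below. PSMB8 exceeded PSMB5 in 6 CTCs, of which 5541-5 belongs to mouse 5541 and 5546-c2, 5546-c5, 5546-c8, 5546-s2 and 5546-s6 to mouse 5546, and in 0 of 6 cultured cells. PSMB9 within PSMB6 plus PSMB9 was 6.92% ± 3.17 in CTCs against 5.97%, and PSMB10 within PSMB7 plus PSMB10 was 6.10% ± 6.38 against 10.8%. Across CTCs the inducible share had a Spearman's rho of 0.24 (n = 37) with the summed leukocyte markers and of 0.25 with the genes detected, and CTCs of a mouse share their animal.

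**Figure D2:**
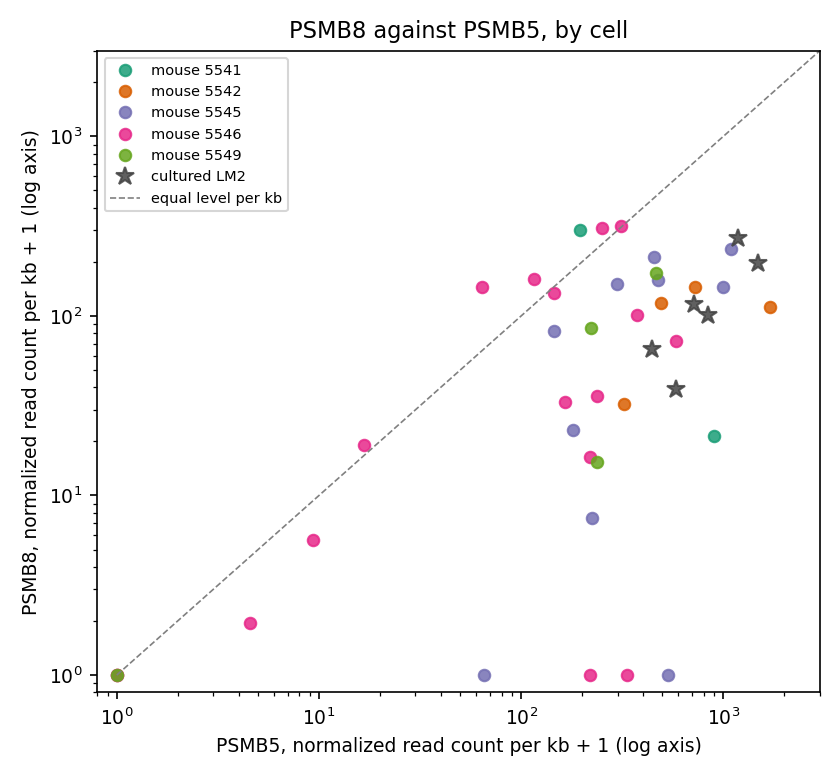
PSMB8 (y axis) is plotted against PSMB5 (x axis) for each cell as normalized read count per kilobase plus 1, on log axes, with CTCs colored by mouse and cultured cells as stars. The 6 CTCs above the dashed line of equal level belong to mice 5541 and 5546, and all 6 cultured cells lie below it. Cells without a read on a gene sit at 1.

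The median of the 19S particle was close to that of all genes on the size-factor scale and on RPM, and below it in the edgeR fit. Its 17 genes had a median log2 ratio of -1.56, equal to that of all genes, and on RPM they were 0.04 above it. In the edgeR fit with TMM their median log2 fold change was -0.04 against 0.31. That fit sums reads per mouse and takes the 13813 genes past its filter. It thus differs from the other 2 in more than the scaling. On the size-factor scale all 5 mice were below the culture for 16 of 17 genes (94.1%), against 60.3% of all genes and 7 of 14 genes of the 20S core. The exception was PSMD8, at -0.40 ± 0.74. This count depended on the scaling. On RPM all 5 mice were below only for PSMC1, PSMC4, PSMD1, PSMD3, PSMD6, PSMD11 and PSMD14, and in the 20S core for PSMA1, PSMA3 and PSMB4. The share of all genes below in every mouse on RPM is not given here, so these lists have no background.

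Of the 6 ATPases, PSMC3 was the highest per kilobase, with means of 425, 841, 588, 266 and 530 against 1003 in culture. PSMC1 was the lowest and met the rule, with means of 72.0, 66.7, 96.9, 51.1 and 37.2 against 204. Of the CTCs, 35 were below every cultured cell for PSMC1 and 1 was above. Its canonical transcript shares 83.2% of its bases with NRDE2 on the opposite strand, and strand was not used in counting, so the reads of the pair cannot be told apart. All 6 ATPases had mean log2 ratios between -1.71 and -1.02.

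Of the 11 other subunits, PSMD1 and PSMD3 met the rule. PSMD1, a scaffold of the base, had means of 191, 38.5, 81.4, 61.4 and 82.8 against 476, with a log2 ratio of -2.58 ± 0.83. All 37 CTCs were below every cultured cell, whose lowest value was 313 while the highest CTC had 296. On RPM 35 of 37 were still below. All genes past the minimum had a median log2 ratio of -1.56 on the size-factor scale, and the share of them without overlap is not given here. PSMD3, a subunit of the lid, had means of 51.1, 31.8, 61.3, 26.7 and 15.1 against 150.4, with 36 of 37 CTCs below every cultured cell and 1 above. PSMD4, a ubiquitin receptor, was the highest of the group per kilobase, with means of 375, 157, 366, 146 and 391 against 680. The cultured cells did not go below 506 for it, and 31 of 37 CTCs were lower than that. PSMD2, the other large scaffold, had 1347 in mouse 5541, carried by 2461 in CTC 5541-1, and 431, 469, 288 and 258 in the other mice against 1853.

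Within a cell, the ratio of reads on the 17 genes of the 19S particle to reads on the 14 genes of the 20S core does not depend on the scaling. It was 0.88 in culture, with cells from 0.69 to 1.12, and 0.57 ± 0.08 (SD, n = 5 mice) in CTCs. The mouse means were 0.70, 0.57, 0.49, 0.50 and 0.58. All 5 mouse means were below the culture mean, and 29 of 37 CTCs were below every cultured cell while 0 were above. In mouse 5541 both CTCs were within the culture's range. The parts of the ratio differed, since the 20S share of reads was 0.77% ± 0.18 in CTCs against 0.74% in culture, and the 19S share was 0.42% ± 0.09 against 0.64%. With 1 culture the ratio was not tested.

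**Figure D3:**
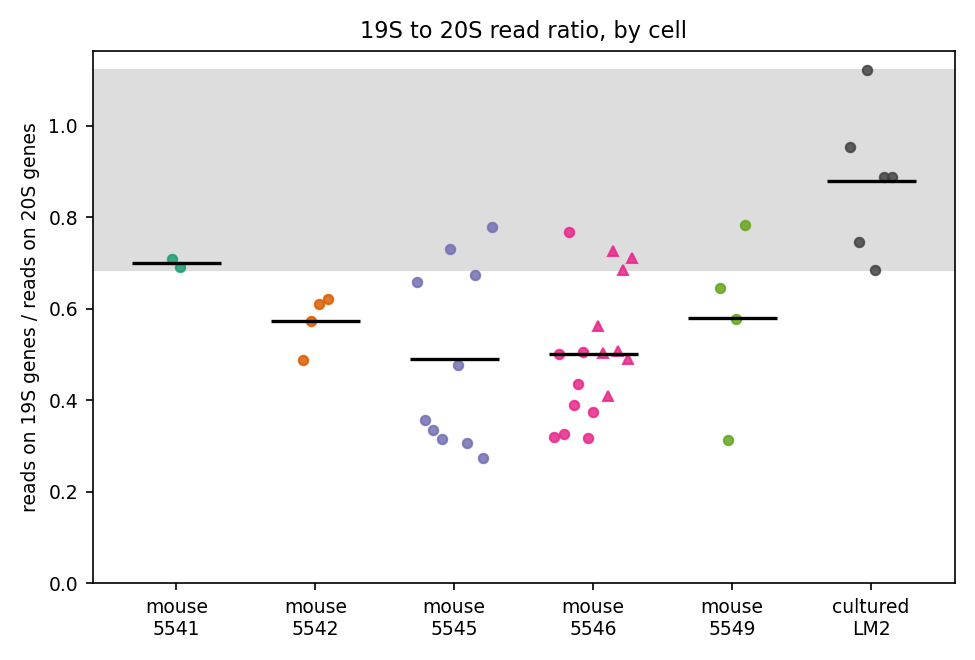
The ratio of reads on 19S genes to reads on 20S genes (y axis) is plotted for each cell by mouse and for the cultured cells (x axis), with black lines for means, triangles for s libraries of mouse 5546 and a grey band for the range of the cultured cells. Of the 37 CTCs, 29 lie under the band and 0 above it.

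The 19S and 20S genes of this ratio differed in transcript length. The canonical transcripts of the 19S genes had a median of 1754 bases and those of the 20S core 1003.5 bases. All protein-coding genes with a culture mean of at least 50 were the background. This minimum uses the culture alone, so genes high only in CTCs are left out, which can lower the medians. The background median log2 ratio fell with length, from -0.52 at 300 to 750 bases through -0.999 at 750 to 1000 to -1.35 at 1000 to 1500. It was -1.71 at 1500 to 2000 and -1.91 at 2000 to 3000 bases. In the same length ranges from 750 bases on, proteasome genes of all roles past this minimum had medians of -0.87, -1.19, -1.29 and -1.69. These rest on 10, 11, 7 and 5 genes. Among genes of 1000 to 2000 bases, the 4 of the 20S core had a median of -0.998 and the 9 of the 19S particle one of -1.29. The 4 are PSMA1, PSMA2, PSMA6 and PSMB5, of which the first 3 share most of their bases with another gene, and PSMB5 alone was at -1.19. Within the 19S particle Spearman's rho of length with log2 ratio was -0.70 (n = 17 genes), and within the 20S core -0.24 (n = 14 genes), where PSMA4, PSMA5 and PSMB2 are long and lay at -0.94, -0.46 and -1.72. The part of transcript length in the lower ratio was not tested.

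**Figure D4:**
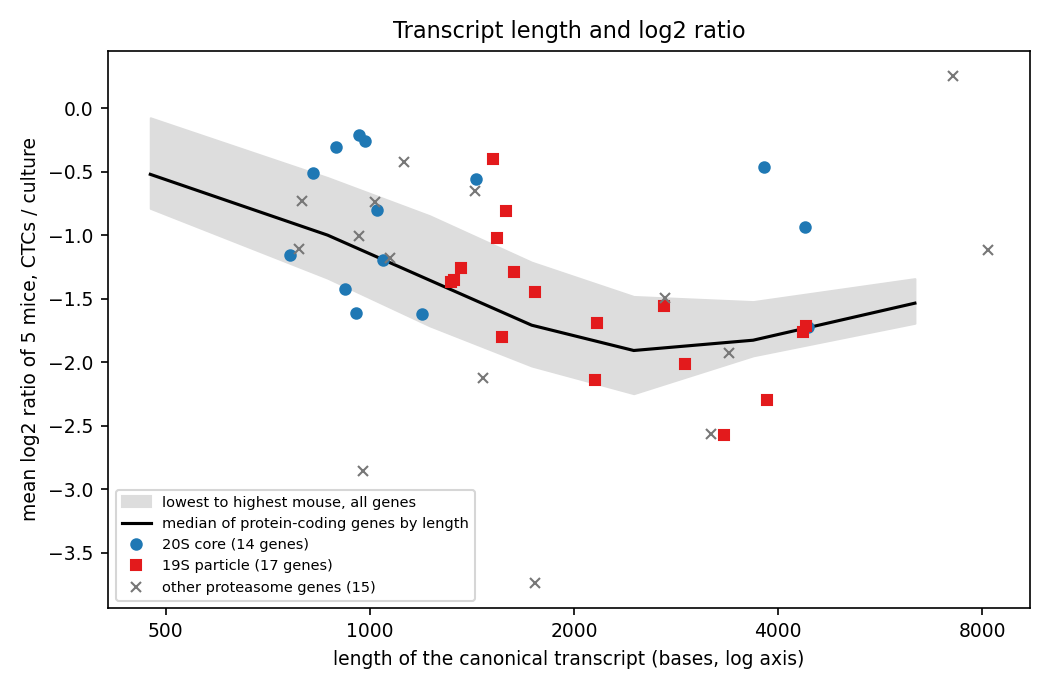
The mean log2 ratio of 5 mice (y axis) is plotted against the length of the canonical transcript in bases (x axis, log) for 14 genes of the 20S core, 17 of the 19S particle and 15 other proteasome genes. The black line joins the medians by length of all protein-coding genes with a culture mean of at least 50. These medians fall from -0.52 to -1.91 and then rise, and the grey band runs from the lowest to the highest mouse.

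The chaperones that assemble the 19S base were among the lower groups, with a median of -1.93. PSMD9 was the highest of the 3 per kilobase, with means of 20.7, 196, 254, 142 and 84.2 against 298. PSMD5 was the lowest, with means of 12.4, 13.8, 22.9, 27.9 and 71.3 against 94.3. PSMD10, also known as gankyrin, had means of 124, 73.0, 78.4, 29.6 and 2.52 against 165. On the size-factor scale all 3 were below the culture in every mouse, as were 60.3% of all genes. On RPM each was below it in 4 of 5 mice, and the share of all genes on that scale is not given here. Of the 3, 0 met the rule, against 25.1% of all genes.

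Of the 4 activators, PSME3 met the rule as lower and the others did not meet it. PSME1 and PSME2 form the interferon-inducible PA28 ring that opens the 20S core. PSME1 had means of 129, 355, 273, 230 and 167 against 438, and PSME2, the highest activator per kilobase, had 111, 517, 498, 240.4 and 362 against 499.7. Mice 5542 and 5545 were at the level of the culture for PSME2 and the others below it. PSME3, the nuclear PA28 gamma, had means of 194, 40.98, 109, 85.4 and 56.8 against 504 and a log2 ratio of -2.57 ± 0.85. For PSME3, 33 of 37 CTCs were below every cultured cell. PSME4, which encodes PA200, had means of 47.8, 8.93, 10.3, 18.3 and 122 against 21.2. Its mean log2 ratio of 0.25 ± 1.53 fell to -0.30 without mouse 5549, where CTC 5549-6 had 356, and the gene was detected in 25 of 37 CTCs and 4 of 6 cultured cells. PSMF1, the inhibitor PI31, had means of 63.1, 53.2, 77.7, 56.1 and 31.4 against 119, and all 37 CTCs fell within the range of the cultured cells, 1 of which was at 0.

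Of the 4 chaperones that assemble the 20S core, PSMG1 met the rule. It had no read in either CTC of mouse 5541 and means of 19.5, 68.9, 17.8 and 43.9 in the other mice, against 218 in culture. Its log2 ratio of -3.74 ± 2.39 was the lowest of the members but rests on mouse 5541, and without that mouse it was -2.73, above PSMD1 at -2.89 and PSME3 at -2.86. It was detected in 25 of 37 CTCs and in 6 of 6 cultured cells, whose lowest value was 41.4, and 26 CTCs were below that. It was the 1 member that met the rule on both scales. Its partner PSMG2 had means of 15.5, 124, 80.0, 74.4 and 76.7 against 141, and did not meet the rule. PSMG3 had 99.2, 116, 168, 98.6 and 58.0 against 161, and PSMG4 had 0.84, 25.01, 13.9, 33.8 and 16.98 against 28.1. Mouse 5541 was the lowest of the 5 for PSMG1, PSMG2 and PSMG4, and it is represented by 2 CTCs.

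The sum of all 46 genes took 1.35% ± 0.28 (SD, n = 5 mice) of the reads in CTCs and 1.59% in culture, where cells ranged from 1.51 to 1.74%. The mouse means were 1.29, 1.51, 1.69, 0.96 and 1.30%. Mice overlapped the culture except mouse 5546, whose 17 CTCs ranged from 0.61 to 1.33%, each below every cultured cell. The 9 CTCs of that mouse with the letter c in the library name averaged 1.00% and the 8 with the letter s 0.91%, so its low share was present in both sets. Mouse 5545 held the CTC with the highest share, 5545-10 with 3.10%, and its 10 CTCs otherwise lay between 1.05 and 2.00%. In that CTC the beta subunits alone took 1.37% of the reads. Across the 37 CTCs the share had a Spearman's rho of -0.50 with the mitochondrial share of reads, of -0.79 in the 17 CTCs of mouse 5546 and of 0.22 in the 10 of mouse 5545, and the points share their animal and denominator.

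**Figure D5:**
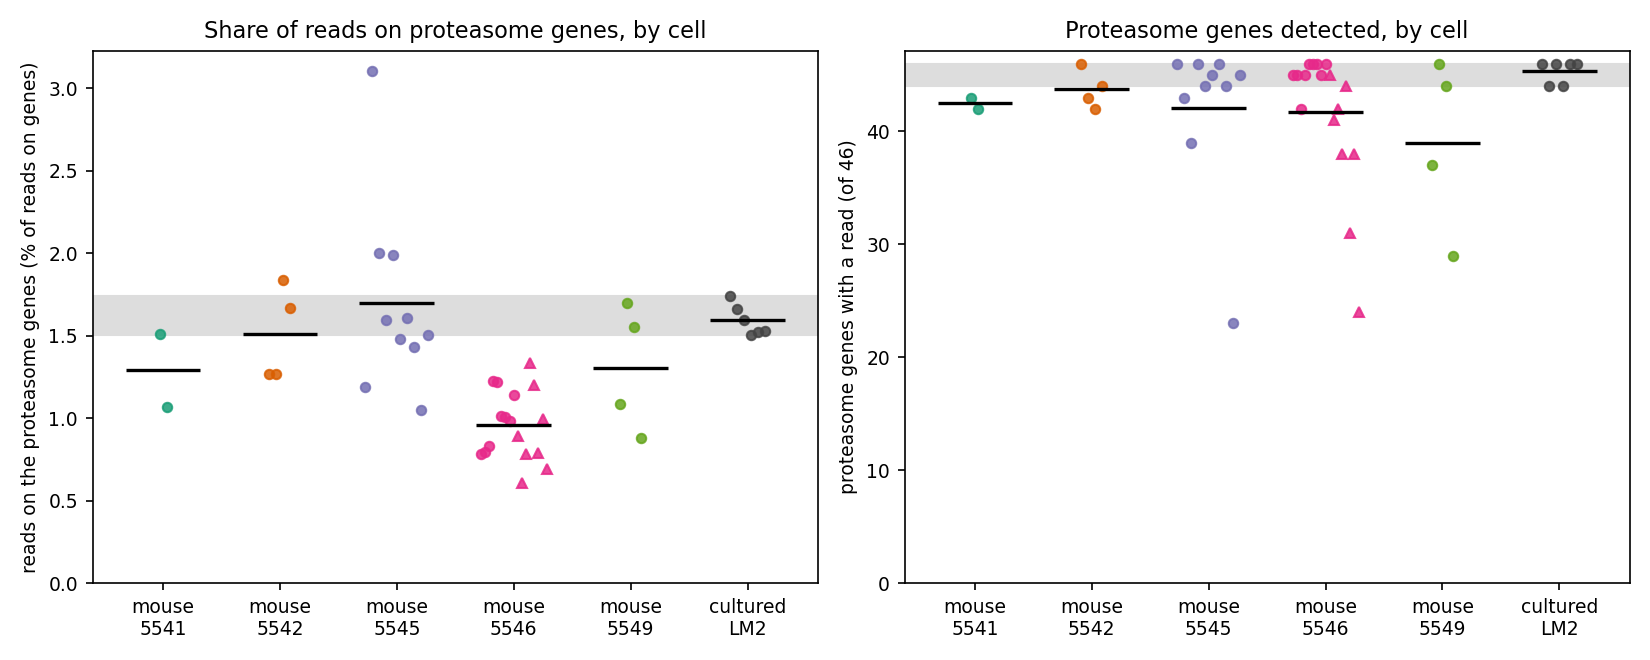
The left panel shows the percent of reads on the 46 proteasome genes and the right panel the number of them with a read (y axes) for each cell by mouse and for the cultured cells (x axes), with black lines for means, triangles for s libraries of mouse 5546 and grey bands for the range of the cultured cells. All 17 CTCs of mouse 5546 lie under the band on the left, and CTC 5545-10 stands at 3.10%.

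A CTC had a read on a median of 44 of the 46 genes, with a range of 23 to 46, and a cultured cell on 44 to 46. Of the members, 10 were detected in all 37 CTCs, namely PSMA1, PSMA4, PSMA7, PSMB1, PSMB3, PSMB4, PSMB6, PSMD2, PSMD12 and PSME2. Some of these detections rest on 1 read, as for PSMA1 in CTC 5546-s9 and PSMB1 in CTC 5546-s7. The share of all genes detected in every CTC is not given here. The number of members detected rose with the genes detected in a CTC (Spearman's rho of 0.81, n = 37), from the same libraries. Thinning of every cell to 469614 reads left the medians at 44 in CTCs and 46 in culture. In mouse 5546 the c libraries had a read on 42 to 46 of the genes and the s libraries on 24 to 45, and the c libraries also had more genes detected in all, 10094 against 6275 on average. PSMB5 averaged 280 in the c libraries and 81.9 in the s libraries. Shares of the 20S and 19S genes rose together across CTCs with a rho of 0.70 (n = 37), which was 0.28 in mouse 5545 and 0.64 in mouse 5546.

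Other genes of the pathway were followed in lists. Of 10 further proteasome genes 3 met the rule as lower and 0 as higher. These were the deubiquitinases UCHL5, with means of 0.84, 15.4, 20.6, 20.6 and 12.6 against 146, and USP14, with 27.9, 43.6, 30.97, 35.9 and 25.5 against 170.4, and the 19S assembly factor PAAF1, with 11.3, 8.01, 8.84, 9.48 and 6.13 against 42.3. Both deubiquitinases bind the 19S particle. The maturation factor POMP and the ubiquitin receptor ADRM1 did not meet it, with log2 ratios of -0.75 ± 0.61 and -0.89 ± 0.71. Of the 4 genes listed for proteasome transcription, NFE2L1, DDI2, NGLY1 and NFE2L2, 0 met the rule in either direction. Of 16 genes of antigen processing, 13 of which passed the minimum, TAP1 alone met it, with means of 28.0, 19.6, 5.40, 7.87 and 13.8 against 67.3, and HLA-B was above the culture in 4 of 5 mice with 877 ± 364 (SD, n = 5 mice) against 415, though class I genes share reads with one another. Of 9 genes of ubiquitin and its handling 0 met it, and the ubiquitin gene UBB had 2927 ± 670 (SD, n = 5 mice) against 3007. Beside these counts, 25.1% of all genes met the rule as lower and 0.262% as higher. The median log2 ratios were -1.18 for the further proteasome genes, -0.92 for antigen processing and -0.83 for ubiquitin, against -1.56 for all genes. For proteasome transcription the median was -2.01, with NFE2L1 itself at -0.41 ± 1.05.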

How the data were processed

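The values were deposited as 1 table of 25739 genes by 43 single-cell SMARTseq2 libraries, 37 CTCs and 6 cultured LM2 cells, and 4 further samples marked as excluded by the submitters were not analysed here. The authors aligned reads with STAR 2.7.10a to GRCh38 and GENCODE 38, kept reads with 1 location, counted them per gene without strand, removed CTCs with under 50% unique or over 50% mitochondrial reads, and deposited a signal per gene, the read count scaled by the DESeq2 1.42.1 size factor. Alignment to the human genome only is described, although the CTCs came from mouse blood. Whole reads were recovered for 100% of values (tolerance 0.001).

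Cells were averaged per mouse, and the log2 ratio to the culture mean took a pseudocount of 1. Named genes were the active-site pairs, activators, inhibitor and 20S chaperones, members that met the rule of size or had an adjusted p under 0.05, the 3 highest and 3 lowest log2 ratios, the highest and lowest member per kilobase in each role group, and context genes that met the rule. Values of other genes, such as PSMD2, PSMD6, PSMD8, PSMD10, HLA-B and UBB, were added after they were seen. Members and lists were chosen with earlier results of these data known. As an alternative, reads summed per mouse were tested against the summed culture with edgeR 4.0.16 in R 4.3.3. Other alternatives were other scalings, pseudocounts, minimums, folds, averages, thinning to 469614 reads, and leaving out each mouse or cultured cell. Scripts ran in Python 3.11.15 with pandas 2.3.3, scipy 1.17.1 and numpy 2.4.6 and were tested on simulated data. Gene symbols, lengths and overlaps came from GENCODE 44, which matched 25684 IDs, after prefixes on mitochondrial and ribosomal IDs were removed. Marker lists covered LM2 cells, leukocytes, erythroid cells, platelets and epithelium, and 2 listed symbols (CD52 and HBA1) had no row. Depth and the few cells per mouse limit precision, and read counts without molecular identifiers are not independent molecules.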

Additional observations from a re-analysis of the deposited data

Results flagged for a closer look

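Among 66 groups of values examined, 6 held a sample that stood apart from the rest of its group by Dixon's criterion, where chance gives about 1 in 20 groups. CTC 5545-10 had 3.10% of its reads on proteasome genes, while the other CTCs of mouse 5545 had 1.05 to 2.00%. CTC 5545-6 had a read on 23 of the 46 genes, while the other CTCs of that mouse had 39 to 46. The log2 ratio of PSMB2 was -0.018 in mouse 5545, raised by CTCs 5545-10 and 5545-11, and -2.49 to -1.90 in the other mice. For the lid subunit PSMD6 it was -2.16 in mouse 5546 and -1.20 to -0.93 in the others. Mouse 5541, with 2 CTCs, had -3.11 for PSMG2 against -0.92 to -0.18, and -3.98 for PSMG4 against -0.96 to 0.26. None of the 40 comparisons between mice met the criterion for opposite effects.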

How the results depend on the processing

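The number of members that met the rule of size was 6, all lower. It was 17 with a fold of 1.5, 0 with a fold of 4, 12 with medians over cells and 17 with means of log2 values, where 39.3, 5.31, 41.3 and 45.5% of all genes met it. It was 1 with RPM, 1 with RPM without mitochondrial genes and 1 after thinning, where 8.72, 7.92 and 8.84% of all genes were lower by the rule. By edgeR it was 0 with TMM, 0 with RLE and 0 with no filter. Leaving out 1 mouse or cultured cell gave 0 to 10, the 0 from edgeR and the 10 without mouse 5545. Without that mouse 29.3% of all genes were lower by the rule. The median log2 ratio of the members, -1.27, was -1.90 with means of log2 values, -0.52 with RPM, -0.47 without mitochondrial genes, -0.59 after thinning and 0.19 from edgeR with TMM. The medians from TMM, those of the 20S core and 19S particle included, were added after seeing the data. Leaving out 1 mouse or cell gave -1.44 to -1.13. Its distance to the median of all genes, 0.29, became -0.21 with a pseudocount of 8 and -1.03 with no minimum. Over all genes edgeR called 0, 27 with no filter (7 lower and 20 higher), and 0 to 1 without 1 mouse, the 1 being without mouse 5545. The ratio of 19S to 20S reads and its alternatives were chosen after seeing the data. Some recomputations, such as that without members sharing exons, are not given here. Per kilobase the ratio was 0.333 in mice and 0.477 in culture, and without PSMD2 it was 0.48 against 0.69. Leaving out 1 mouse or cell gave 0.536 to 0.588 in mice and 0.832 to 0.919 in culture. Division by a fixed length weights each gene alike in both groups, so the ratio per kilobase does not account for transcript length. Of 966 log2 ratios of single members under alternatives, 120 moved by more than 1 SD, and 0 of the members that met the rule changed sign. Members that did not meet it could change sign, as PSME4 did without mouse 5549 (-0.30). The cause of these shifts was not tested.

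No paired analysis was possible because no number joins a mouse to the cultured cells. With 1 culture, a difference between mice and culture cannot be told apart from a difference between this culture and others, and with 2 to 17 CTCs per mouse a gene without reads may be undetected at this depth. Fewer transcripts per cell and lower capture cannot be told apart.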
